A study of Homo sapiens with 6 samples.

Results

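The 34 genes described here were listed by name as genes of the ATF4 integrated stress response and of amino acid supply, and each was found by its symbol among the 25528 gene symbols of the expression table. They comprise 6 transcription factors, 5 stress regulators, 12 enzymes of amino acid and one-carbon metabolism, 7 amino acid transporters and a group of 4 with 3 secreted proteins and 1 receptor. RNA-seq was performed on DU-145/tet-XISTshRNA cells, which are human castration-resistant prostate cancer cells carrying a doxycycline (DOX)-inducible shRNA against the long non-coding RNA XIST. Of 6 samples, 3 received the vehicle, which was 0.1% DMSO, and 3 received DOX at 500 ng/ml over 7 days. Both groups carried the vector and had been through drug selection, and no sample of a DOX-treated line without the XIST shRNA was analysed here. The response to DOX itself and the response to the shRNA therefore cannot be told apart.

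In the integrated stress response, stress kinases phosphorylate the translation factor eIF2, which lowers protein synthesis in general while favouring translation of the ATF4 mRNA. The ATF4 protein then activates genes for amino acid synthesis, amino acid uptake and tRNA charging, together with regulators that prolong or end the response. Part of ATF4 control is thus on translation, which mRNA levels do not measure. Doxycycline is an antibiotic of bacterial translation that also affects translation in mitochondria, and disturbed mitochondria are among the known inducers of this response.

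ATF4 binds with C/EBP partners to a composite element with the core TGATGNAA, and the promoter windows that hold it are shown because they mark members with a candidate ATF4 site near the start of transcription. Windows from 250 bases before to 50 bases after annotated starts (RefSeq, GRCh38.p14) were found for 27 of the 34 genes and were searched on both strands. The element was present for 8 of these 27 genes (29.6%), against 4.46% of all 27305 genes with such a window. Among tested genes it was present for 6 of 23 members (26.1%), against 2.54% of 8852. The members were listed by name as ATF4 response genes, so a higher share could follow from that choice alone. A gene can have several windows, and there were 43 for these 27 members and 35116 for all 27305 genes. In the following stretches, written 5′ to 3′ on the strand of the gene, capitals mark the element, and TTNCATCA is the same element on the opposite strand.
ASNS (chr7:97872453-97872492, minus strand): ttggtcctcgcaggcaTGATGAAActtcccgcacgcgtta
CEBPG (chr19:33374055-33374094, plus strand): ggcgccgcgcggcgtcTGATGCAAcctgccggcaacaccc
CHAC1 (chr15:40953246-40953285, plus strand): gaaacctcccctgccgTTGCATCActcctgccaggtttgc
FGF21 (chr19:48755454-48755493, plus strand): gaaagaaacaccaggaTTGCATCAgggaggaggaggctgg
SLC1A4 (chr2:64989376-64989415, plus strand): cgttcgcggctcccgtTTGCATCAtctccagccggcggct
SLC1A5 (chr19:46784888-46784927, minus strand): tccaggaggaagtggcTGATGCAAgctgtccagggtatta
SLC3A2 (chr11:62881720-62881748, plus strand): taatgtgcaggactccTTACATCAgctcc
SLC7A1 (chr13:29595658-29595697, minus strand): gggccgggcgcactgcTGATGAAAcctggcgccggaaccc

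These stretches are matches of letters and not measured binding sites. The 7 members without a window were SLC7A11, ALDH1L2, GPT2, PSPH, PYCR1, SHMT2 and NUPR1.

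Expression was deposited as TPM (a gene's share of 1000000 transcripts), which divides reads by gene length, so levels of different genes can be compared only roughly. Values are given as scaled TPM, in which each sample was divided by its median ratio to the other samples. This was done because 5 small RNAs held 67.5% to 76.0% of the TPM in vehicle samples and 76.0% to 82.6% in DOX samples. Reads on genes, recovered from the TPM, numbered 5454084 in vehicle replicate 3, 64574328 in DOX replicate 1 and 16702184 to 20351976 in the other 4 samples. XIST was listed at 0 in all 6 samples, as was EIF4A1, a translation factor used by every cell, so silencing of the target could not be checked from these values. All 5 epithelial markers were above 1 TPM, with summed levels of 195 to 257 scaled TPM in vehicle and 281 to 375 in DOX samples. Most of these sums came from 3 keratins, whereas EPCAM was lower in all DOX samples (12.5 to 13.9 scaled TPM, against 15.3 to 17.7 in vehicle) and CDH1 overlapped (5.14 to 9.94, against 8.91 to 10.0). What these shifts contribute to the values of the members was not tested. The prostate luminal markers KLK3 and HOXB13 were listed at 0 in all samples. None of the fibroblast and endothelial markers reached 1, and of 5 immune markers CD68 alone did, with CD3E at 0. Summed levels were 0.59 to 0.66 (vehicle) and 0.300 to 0.638 (DOX) for the 6 fibroblast markers, and 0.0527 to 0.0597 and 0.0540 to 0.117 for the 4 endothelial markers. They were 13.9 to 15.6 and 11.5 to 18.0 for the immune markers.

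Of the 34 genes, 30 had a mean of at least 1 scaled TPM and were tested, and ASNS, CBS, FGF21 and GDF15 did not reach it. Across the tested members mean levels ran from 1.13 for NUPR1 to 213 for SLC38A2, and 15 of them were at 10 or above. The most abundant after SLC38A2 were PSAT1, ATF4 and MTHFD2. The serine synthesis enzyme PSAT1 and the mitochondrial folate enzyme MTHFD2 were at 103 ± 7.31 and 44.3 ± 2.72 scaled TPM (SD, n = 3) in vehicle-treated cells. All 30 tested members were thus present in vehicle-treated cells, with the lowest mean, that of CHAC1, at 0.873, so that CHAC1 reached the minimum only through its DOX samples.

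**Figure D1:**
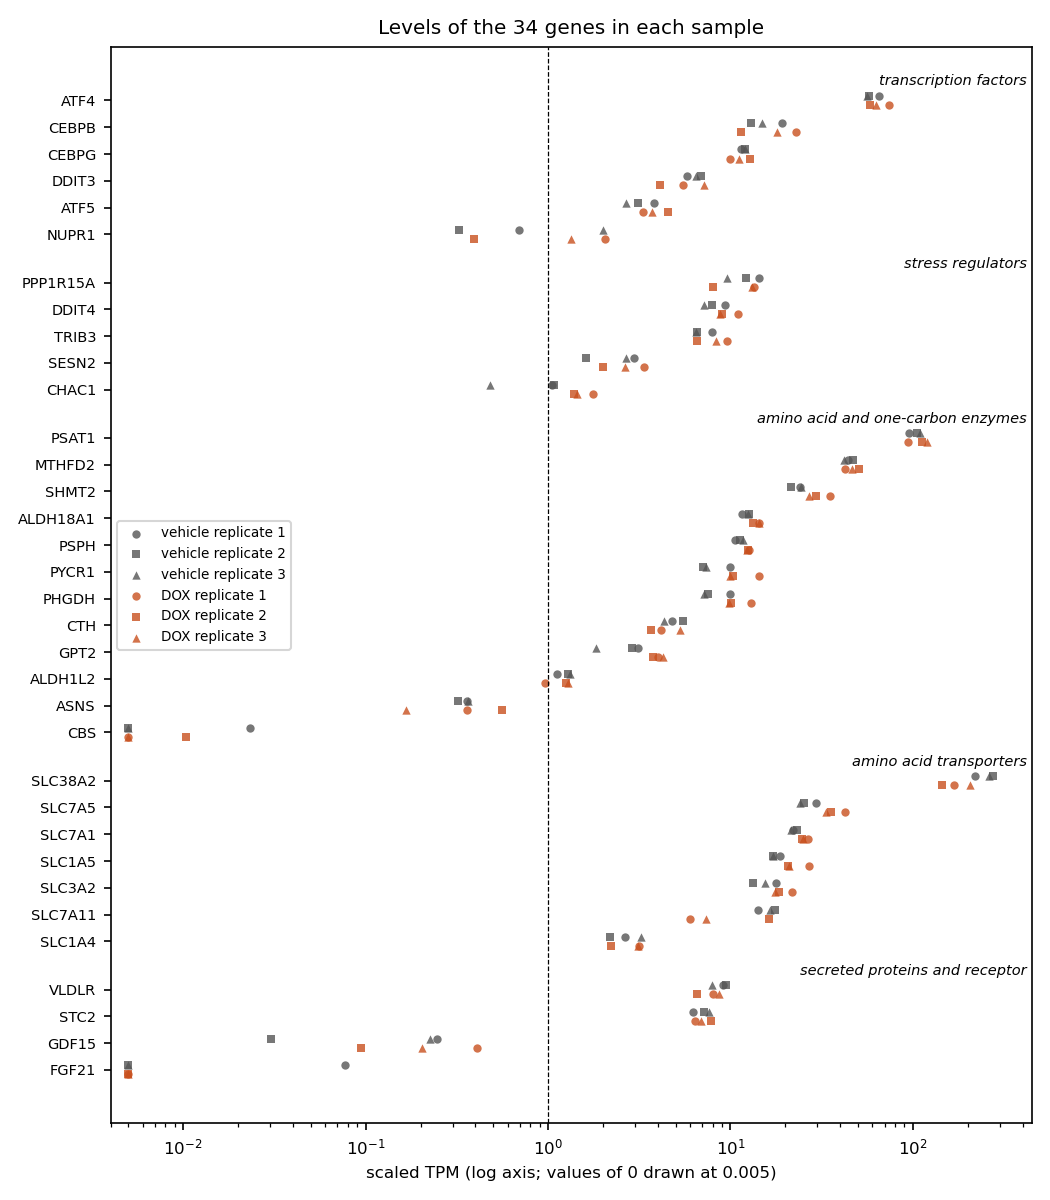
Scaled TPM (log axis) of the 34 genes in the 3 vehicle samples (grey) and the 3 DOX samples (orange), grouped by role, with symbols for the replicate numbers and the expression minimum of 1 as a dashed line. Levels span from SLC38A2, at 145 to 275 scaled TPM, to CBS and FGF21, which are drawn at the left edge where they were listed at 0.

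The comparison of DOX with vehicle asks how these genes respond when the shRNA is induced. No member passed both an adjusted p of 0.05 (limma, Benjamini-Hochberg) and a change over 1.5-fold, and 0 of all 11630 genes tested were called (0%). Adjusted p-values of the members ran from 0.281 to 0.977. The estimates leaned to higher values in DOX-treated cells, with 22 of 30 members (73.3%) above 0 and a median log2 fold change of 0.13, against 52.9% and 0.02 for all genes tested. In RNA from whole cultures, fewer cells expressing a gene and less of its RNA per cell cannot be told apart. At an unadjusted p-value under 0.05 with no minimum fold change, 7 members (23.3%) were higher and 2 (6.67%) were lower, against 8.1% and 7.74% of all genes. Both the 22 above 0 and these 7 include CHAC1, which reached the expression minimum only through its DOX samples.

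The groups were fully separated, with all DOX samples above all vehicle samples, for 9 of 30 members (30%), against 10.9% of all genes. These 9 were CHAC1, PSPH, SHMT2, PYCR1, ALDH18A1, GPT2, SLC7A5, SLC7A1 and SLC1A5, so that 5 were enzymes and 3 were transporters. Leaving out CHAC1, which reached the expression minimum only through its DOX samples, the count was 8 of 29 (27.6%). Only SLC38A2 had all DOX samples below all vehicle samples (3.33%, against 9.13% of all genes). Relative to the vehicle mean, the median log2 value of the tested members was 0.24, 0.12 and 0.17 in DOX replicates 1, 2 and 3 and 0.04, 0.02 and -0.04 in vehicle replicates 1, 2 and 3. The DOX samples were therefore all above the vehicle samples by this median. The median of all genes stayed between -0.01 and 0.03, but the scaling by median ratios itself holds it near 0 in every sample. The median log2 fold change was 0.10 without DOX replicate 1, the deepest library, and 0.13 without vehicle replicate 3, the shallowest. It was 0.20 without DOX replicate 2.

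Deviations from the group means correlated across genes within replicate numbers 1, 2 and 3 (r of 0.56, 0.26 and 0.19). The unlike pair of vehicle replicate 2 and DOX replicate 3 reached 0.22, above number 3. A fit on the recovered reads (voom) with the replicate number as a block was also made, with no minimum fold change. It called 4 members higher, which were SLC7A5, PYCR1, SHMT2 and SLC1A5 (13.3%, against 5.63% of all genes). It called 2 members lower, SLC7A11 and SLC38A2 (6.67%, against 7.94%). These counts depended on which pair of samples was left out. Without the pair numbered 1 there was 1 member lower (3.33%) and 0 higher, against 1.53% and 1.38% of all genes. Without the pair numbered 2 there were 2 lower (6.67%) and 7 higher (23.3%), against 15.1% and 11.8% of all genes. Without the pair numbered 3 there were 0 of either among 29 members tested, against 0.226% and 0.182% of all genes. Calls higher thus rose and fell with those of all genes, whereas members called lower stayed at 2 without the pair numbered 2. With the block on scaled TPM no member passed, and the lowest adjusted p-value was 0.0553.

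On TPM as deposited, without scaling, the median of all genes was -0.35 on the log2 scale and calls were 348 lower and 3 higher over all genes. Only 4 of 30 members (13.3%) were then above 0, against 6.90% of all genes, and without the 5 small RNAs 18 of 31 members were above 0 (58.1%, against 40.1%). On TPM as deposited SLC7A11 and SLC38A2 were called lower, 2 of 30 members (6.67%), against 2.98% of all genes. Without the 5 small RNAs 0 members and 0 of all genes were called lower.

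**Figure D2:**
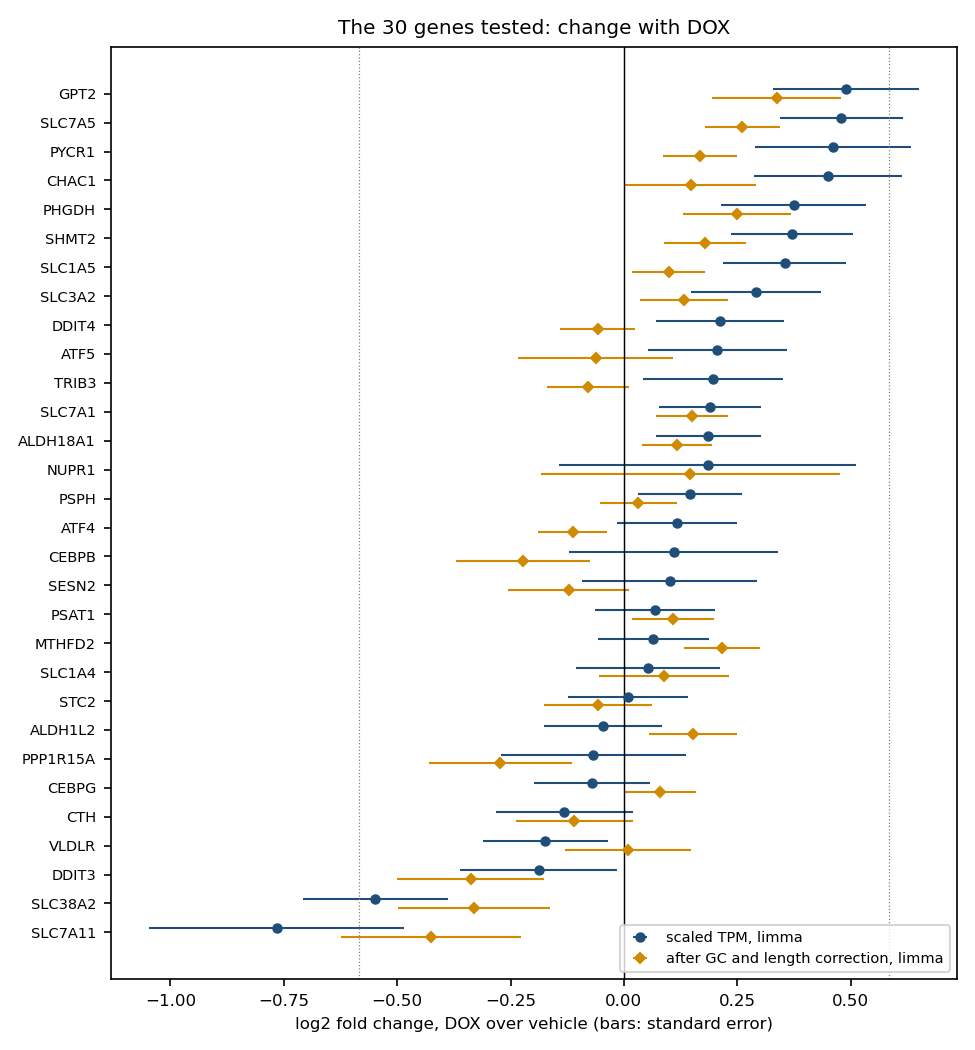
Log2 fold change (DOX over vehicle) with its standard error for the 30 members tested, from scaled TPM (blue circles) and after correction for GC content and transcript length (amber diamonds), with dotted lines at 1.5-fold. Estimates run from -0.77 for SLC7A11 to 0.49 for GPT2, and SLC7A11 alone lies beyond the 1.5-fold line.

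Among the transcription factors no separation of the groups was seen. ATF4 (chr22:39519695-39522683, plus strand, GRCh38), the central activator of the response, was at 65.3, 57.9 and 55.9 scaled TPM in vehicle replicates 1, 2 and 3 and at 73.6, 58.5 and 62.8 in DOX replicates 1, 2 and 3. DOX replicates 2 and 3 lay within the vehicle range. The log2 fold change was 0.12 (SE 0.13, limma adjusted p = 0.652). It was 0.02 without DOX replicate 1 and 0.19 without DOX replicate 2.

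DDIT3 (chr12:57516588-57521737, minus strand), which encodes the pro-apoptotic factor CHOP, was at 5.74, 6.93 and 6.45 scaled TPM in vehicle and 5.50, 4.11 and 7.12 in DOX samples. The third DOX sample was the highest of all 6. On the log2 scale the change was -0.19 (SE 0.17, adjusted p = 0.577), and without DOX replicate 2 it was -0.01.

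The other 4 factors also overlapped between groups. CEBPB and CEBPG, partners of ATF4 on the composite element, had means of 15.7 ± 3.20 and 11.8 ± 0.301 scaled TPM (SD, n = 3) in vehicle and 17.5 ± 5.81 and 11.3 ± 1.43 in DOX samples. ATF5, a related factor linked to the mitochondrial stress response, was at 3.22 ± 0.574 and 3.86 ± 0.646. The stress-inducible chromatin protein NUPR1 varied most within groups, from 0.327 to 2.00 scaled TPM in vehicle and from 0.391 to 2.05 in DOX samples, on as few as 6 reads.

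CHAC1 (chr15:40952962-40956512, plus strand) encodes an enzyme that degrades glutathione and its promoter window holds the element. It was at 1.06, 1.08 and 0.479 scaled TPM in vehicle and 1.77, 1.38 and 1.45 in DOX samples. All DOX samples were above all vehicle samples, and the lowest vehicle value, of replicate 3, rested on 6 reads. CHAC1 had a log2 fold change of 0.45 (SE 0.16, adjusted p = 0.282), and without vehicle replicate 3 it was 0.28.

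TRIB3, a pseudokinase that restrains ATF4, was at 6.96 ± 0.792 scaled TPM in vehicle and 8.18 ± 1.54 in DOX samples. The mTORC1 inhibitors DDIT4 and SESN2 were at 8.14 ± 1.11 and 2.43 ± 0.713 in vehicle and 9.58 ± 1.21 and 2.66 ± 0.677 in DOX samples. PPP1R15A, the subunit that directs a phosphatase to eIF2 and so ends the response, was at 12.0 ± 2.38 and 11.6 ± 3.06. For all 4 the groups overlapped and the log2 fold changes lay between -0.07 and 0.21.

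The enzymes gave 8 of 10 tested members above 0, against 52.9% of all genes, with a median log2 fold change of 0.17. Of these 10, 5 had all DOX samples above all vehicle samples, against 10.9% of all genes. GPT2 (chr16:46884362-46931289, plus strand), the mitochondrial transaminase that links alanine and glutamate, was at 3.11, 2.89 and 1.83 scaled TPM in vehicle and 4.01, 3.75 and 4.24 in DOX samples. All DOX values were higher, and vehicle replicate 3 was the lowest of the 6. The log2 fold change was 0.49 (SE 0.16, adjusted p = 0.281), the highest among the members, and without vehicle replicate 3 it was 0.32.

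PYCR1 (chr17:81932384-81942412, minus strand), which makes proline in the mitochondrion, was at 9.96, 7.07 and 7.38 scaled TPM in vehicle and 14.4, 10.4 and 10.0 in DOX samples. The lowest DOX value was just above the highest vehicle value. Its log2 fold change was 0.46 (SE 0.17, adjusted p = 0.282), and it was 0.52 by voom with the block (adjusted p = 0.0212). Without DOX replicate 1, the deepest library, it was 0.30. ALDH18A1, the enzyme that starts proline synthesis from glutamate, was at 12.2 ± 0.573 in vehicle and 14.0 ± 0.580 in DOX samples, with separated groups.

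The 3 enzymes of serine synthesis had estimates from 0.07 to 0.37 on the log2 scale. PHGDH, which takes the first step, was at 9.98, 7.53 and 7.14 scaled TPM in vehicle and 13.0, 10.0 and 9.77 in DOX samples. Each DOX sample was above the vehicle sample of the same number, and the groups overlapped by 1 sample (log2 fold change 0.37, SE 0.16, adjusted p = 0.300). PSAT1, for the next step, had means of 103 and 109 scaled TPM (log2 fold change 0.07, SE 0.13). PSPH, for the last step, was at 11.2 ± 0.609 and 12.5 ± 0.175, with separated groups and a log2 fold change of 0.15. Differences between these 3 changes were not tested.

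SHMT2, which splits serine to feed mitochondrial one-carbon metabolism, was at 24.0, 21.4 and 24.3 scaled TPM in vehicle and 35.3, 29.3 and 26.8 in DOX samples. All DOX samples were above all vehicle samples, with a log2 fold change of 0.37 (SE 0.14, adjusted p = 0.282), and voom with the block gave 0.41 (adjusted p = 0.0331). MTHFD2 and ALDH1L2, of the same mitochondrial folate pathway, had log2 fold changes of 0.06 (SE 0.12) and -0.05 (SE 0.13). CTH, of the pathway from homocysteine to cysteine, was at 4.86 ± 0.594 in vehicle and 4.38 ± 0.831 in DOX samples. PHGDH and SHMT2 are given by sample, here beyond the fixed rule, because their values were seen to be among the higher ones.

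The transporters held the 2 lowest estimates among the members, and SLC7A5 had 1 of the 4 highest. SLC7A11 (chr4:138164097-138242349, minus strand) encodes the cystine importer that supplies glutathione synthesis. It was at 14.2, 17.5 and 16.5 scaled TPM in vehicle and 5.99, 16.3 and 7.34 in DOX samples. DOX replicates 1 and 3 were far below every vehicle sample, whereas DOX replicate 2 lay within the vehicle range. Each DOX sample was below the vehicle sample of the same number. The log2 fold change was -0.77 (SE 0.28, adjusted p = 0.282), and by voom with the block it was -0.82 (adjusted p = 0.0187). Without DOX replicate 2 it was -1.15 (adjusted p = 0.0519), and without DOX replicate 1 it was -0.51.

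SLC38A2 (chr12:46358188-46372773, minus strand), an importer of small neutral amino acids and the most abundant member, was at 220, 275 and 263 scaled TPM in vehicle and 169, 145 and 207 in DOX samples. The groups were fully separated, with the highest DOX value below the lowest vehicle value. The estimate was -0.55 on the log2 scale (SE 0.16, adjusted p = 0.281), and voom with the block gave -0.55 (adjusted p = 0.0172).

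SLC7A5 (chr16:87830023-87869507, minus strand) encodes the importer of large neutral amino acids such as leucine. It was at 29.4, 25.4 and 24.1 scaled TPM in vehicle and 42.4, 35.5 and 33.5 in DOX samples. The groups did not overlap, and every DOX sample was above the vehicle sample of its number. The log2 fold change was 0.48 (SE 0.14, adjusted p = 0.281), and 0.50 by voom with the block (adjusted p = 0.0130). A near-identical pseudogene, SLC7A5P2, was at 1.07 to 2.31 scaled TPM, and how reads common to the pair were assigned is uncertain. SLC3A2, the heavy chain that pairs with both SLC7A5 and SLC7A11, was at 15.6 ± 2.26 in vehicle and 19.2 ± 2.18 in DOX samples (log2 fold change 0.29, SE 0.14, adjusted p = 0.335).

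SLC1A5, the main glutamine importer, was at 18.6, 17.2 and 17.0 scaled TPM in vehicle and 27.1, 20.7 and 21.0 in DOX samples. All DOX samples were higher, with a log2 fold change of 0.35 (SE 0.14, adjusted p = 0.283) and of 0.38 by voom with the block (adjusted p = 0.0359). The arginine and lysine importer SLC7A1 was at 22.2 ± 0.823 and 25.4 ± 1.02, also with separated groups, and the neutral amino acid transporter SLC1A4 was at 2.68 ± 0.514 and 2.82 ± 0.538. SLC1A5 was likewise given by sample after its values were seen.

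**Figure D3:**
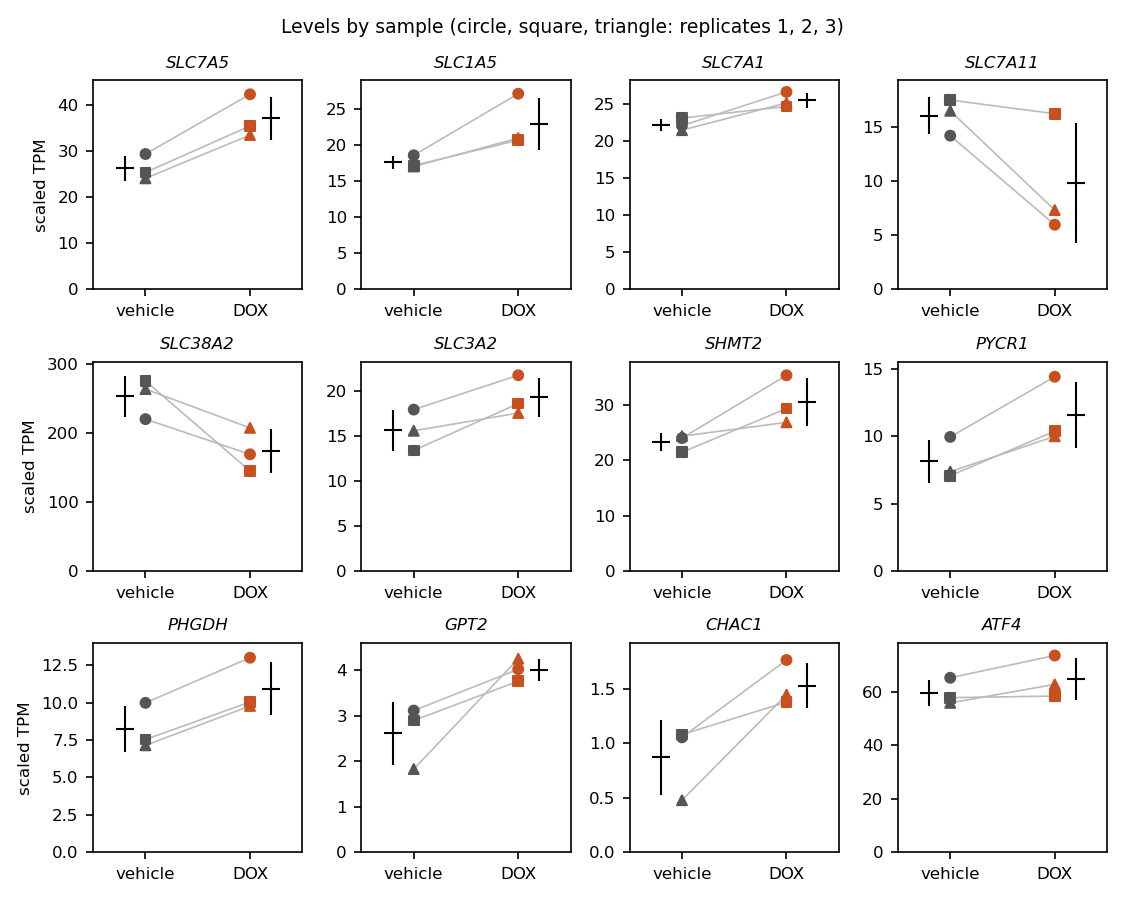
Scaled TPM of 12 members by sample, with grey lines joining samples of the same replicate number and black bars for the group mean ± SD (n = 3). SLC7A5 is higher in every DOX sample and SLC38A2 lower, while DOX replicate 2 of SLC7A11, at 16.3, stays at the vehicle level.

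VLDLR (chr9:2621182-2660056, plus strand), a lipoprotein receptor induced through ATF4, was at 9.10, 9.41 and 7.97 scaled TPM in vehicle and 8.05, 6.56 and 8.62 in DOX samples. Groups overlapped, with a log2 fold change of -0.17 (SE 0.14, adjusted p = 0.519), and it was -0.07 without DOX replicate 2. STC2, a secreted glycoprotein, was at 6.99 ± 0.719 and 7.04 ± 0.728.

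No change was detected for the 4 members under the expression minimum. ASNS, the asparagine synthetase often used as a readout of ATF4, was at 0.361, 0.323 and 0.366 scaled TPM in vehicle and 0.360, 0.562 and 0.166 in DOX samples, on 8 to 99 reads (exact permutation test, two-sided, p = 1.0). With 3 samples against 3 this test cannot go below 0.1. The stress hormone GDF15 was at 0.248, 0.0305 and 0.224 in vehicle and 0.410, 0.0939 and 0.204 in DOX samples (exact permutation p = 0.6). CBS, the first enzyme from homocysteine to cysteine, had a level of 0.0233 in the first vehicle sample and of 0.0103 in the second DOX sample, and was listed at 0 in the others, and its near-identical copy CBSL had 4 reads in all. The hormone gene FGF21 had 2 reads in vehicle replicate 1 and was listed at 0 in the other samples. An exact 0 in this table, where EIF4A1 is also at 0, may be a failed estimate. Whether the low values of ASNS reflect its expression or how reads were assigned to genes was not tested.

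The 6 tested members with the element in a window had log2 fold changes from -0.07 for CEBPG to 0.45 for CHAC1. Those of SLC1A5, SLC3A2 and SLC7A1 lay between 0.19 and 0.35, and that of SLC1A4 was 0.05.

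Changes of the members varied with their GC content. GC content of the longest transcript (GENCODE 44, GRCh38) correlated with the log2 fold change across the 30 members with Spearman's rho of 0.71, and with rho of 0.68 across 11164 genes, as descriptions across genes that share the same 6 libraries. The median change of all genes was -0.25 in the lowest decile of genes by GC content and 0.27 in the highest. SLC7A11 and SLC38A2, with 35.4% and 37.4% GC, were in the lowest decile, and SLC7A5, PYCR1, CHAC1 and SLC1A5, with 61.2% to 63.1%, were in the highest, as were TRIB3 and CEBPB. The members had a median GC content of 52.5%, against 47.1% for all genes tested. Of the 30 members, 17 were above the median of their own decile, by a median difference of 0.08 over all 30.

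**Figure D4:**
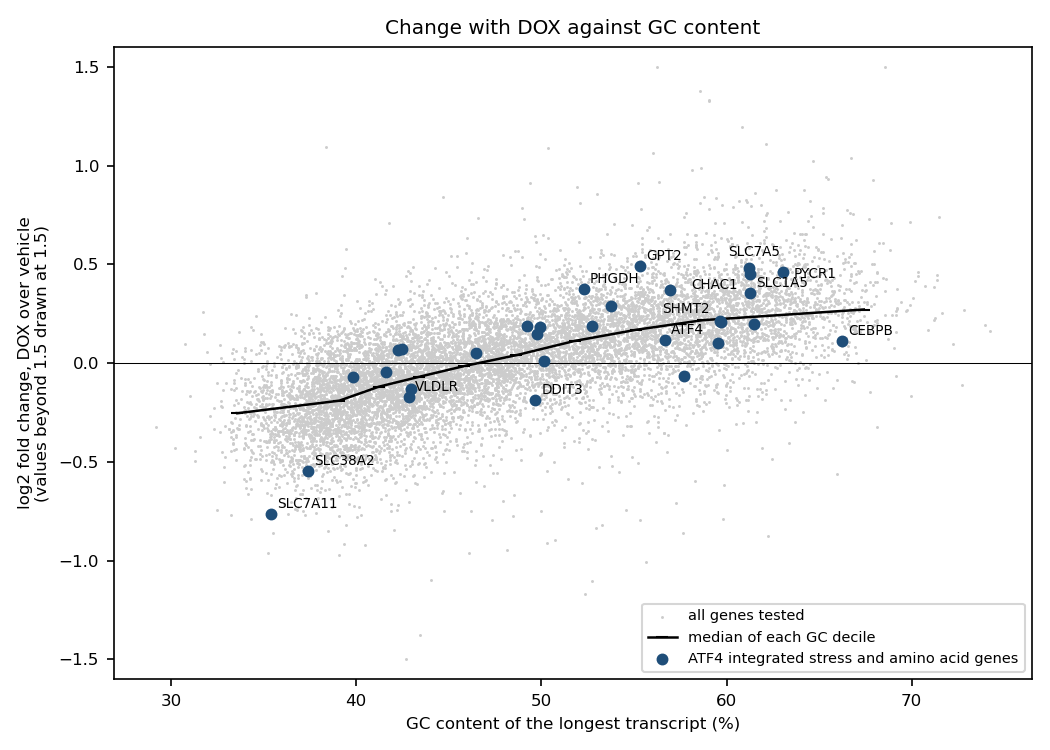
Log2 fold change (DOX over vehicle) against GC content of the longest transcript, for all tested genes with a value (grey), the median of each decile of genes by GC content (black line) and the 30 members (blue). The line climbs from -0.25 to 0.27, and SLC7A11 and SLC38A2 lie below it at its low end.

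After correction of each sample for GC content and transcript length, 18 of 30 members (60%) were above 0, against 52.0% of all genes, with a median of 0.08 against 0.01. The enzymes had 9 of 10 above 0 with a median log2 fold change of 0.16, and the transporters 5 of 7 with 0.10. By contrast 2 of 6 transcription factors and 1 of 5 stress regulators were above 0, with medians of -0.09 and -0.08. These differences between roles were not tested. ATF4 turned to -0.11 (SE 0.08), and DDIT3 was at -0.34 (SE 0.16). SLC7A11 was at -0.42 (SE 0.20), SLC38A2 at -0.33 (SE 0.17), GPT2 at 0.34 (SE 0.14), SLC7A5 at 0.26 (SE 0.08), PYCR1 at 0.17 (SE 0.08) and CHAC1 at 0.15 (SE 0.14). VLDLR turned to 0.01 (SE 0.14). With this correction the lowest adjusted p-value among the members was 0.310, and voom with the block called 0 members and 0 of all genes.

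Other genes of the pathway were read from 3 further lists. Of 17 genes for eIF2 kinases, eIF2, eIF2B and the relay from mitochondria, 0 were called, with a median log2 fold change of -0.01. The highest estimate was that of EIF2B2, a subunit of the exchange factor that recharges eIF2, from 16.8 ± 0.682 to 21.5 ± 0.194 scaled TPM (log2 fold change 0.34, SE 0.11, adjusted p = 0.281). The lowest estimate was that of EIF2AK2, the kinase PKR, at 29.4 ± 1.55 and 23.5 ± 4.39 (-0.32, SE 0.15, adjusted p = 0.315), which voom with the block called at an adjusted p of 0.0495. That fit called 1 of the 17 lower and 0 higher, against 7.94% and 5.63% of all genes. EIF2AK2, with 39.2% GC, was at -0.04 (SE 0.08) after the GC and length correction by limma, and EIF2B2 at 0.36 (SE 0.08). EIF2AK1, the kinase that OMA1 and DELE1 connect to mitochondrial stress, was at 52.5 ± 6.27 and 51.6 ± 6.90.

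Of 20 cytosolic aminoacyl-tRNA synthetases, many of which are targets of ATF4, 14 had estimates above 0 and the median was 0.12. For all genes tested, 52.9% were above 0 and the median was 0.02. None was called on scaled TPM. The highest was FARSA, a subunit of the phenylalanine enzyme, at 8.39 ± 1.93 and 13.3 ± 3.03 scaled TPM (log2 fold change 0.60, SE 0.19, adjusted p = 0.281), and the lowest was EPRS1 at -0.22 (SE 0.18). By voom with the block FARSA and VARS1 (listed as VARS) were called higher, with adjusted p-values of 0.0160 and 0.0141. These were 2 of 20, against 5.63% of all genes, and 0 were called lower, against 7.94%.

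Of 22 further genes linked to ATF4, 19 were tested and 0 were called, with a median of 0.03. KLHL24, an adaptor of a ubiquitin ligase, had the lowest estimate, from 9.70 ± 1.23 to 5.40 ± 0.455 scaled TPM (log2 fold change -0.74, SE 0.14, adjusted p = 0.261). The highest was that of EIF4EBP1, a repressor of cap-dependent translation, from 13.4 ± 3.86 to 20.4 ± 4.34 (0.59, SE 0.22, adjusted p = 0.282). By voom with the block 3 of 19 were lower, which were KLHL24, RPS6KA3 and the glutamine transporter SLC38A1, against 7.94% of all genes. EIF4EBP1 alone was higher, 1 of 19, against 5.63% of all genes. KLHL24, SLC38A1 and RPS6KA3 have a low GC content, at 36.7%, 41.3% and 39.5%, and EIF4EBP1 and FARSA a high one, at 62.9% and 60.3%.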

How the data were processed

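RNA-seq of 3 vehicle and 3 DOX samples of DU-145/tet-XISTshRNA cells, grouped and numbered by their labels, was analysed. The authors prepared stranded mRNA libraries, aligned the reads to GRCh38 with STAR, normalized with DESeq2 and deposited TPM per gene symbol. They also deposited a mean normalized count per gene (a signal with no value per sample), and their fold changes and p-values, which were not used. Tool versions are not given in the sources used here. The labels name a column kit for RNA isolation and the methods name Trizol.

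TPM was scaled by the median of ratios, a pseudocount of 1 was added and log2 values were fitted by limma 3.58.1 (R 4.3.3, eBayes with trend) for genes with a mean of at least 1, without a block. Calls required a Benjamini-Hochberg adjusted p under 0.05 and a change over 1.5-fold. Full values were given for the 4 highest and the 4 lowest members, ATF4 and members under the minimum, and for the highest and lowest gene of each further list. Reads were recovered from TPM and the deposited mean, and 98.9% of 21272 low values were whole within 0.05, against 10% by chance. They were used for voom. Both fits were also run on simulated reads that held no trend with GC content, so those runs do not cover the pattern with GC content seen here. The correction for GC content and length used splines with 5 degrees of freedom, and 96.0% of tested genes had both values. Python 3.11.15, pandas 2.3.3, SciPy 1.17.1 and matplotlib 3.10.9 were used.

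Nothing in the labels says what a replicate number stands for. Deviations of same-numbered samples gave r across genes of 0.56, 0.26 and 0.19 for numbers 1, 2 and 3 (-0.42 to 0.22 for other pairs), and 0.17, 0.02 and 0.15 (-0.26 to 0.09 for other pairs) after the GC and length correction. The pairing thus rests on these correlations alone. The methods state that cells were cultured in triplicate, and p-values measure the spread between these 6 samples. Some cell type markers are not reported here. The members and lists were chosen with earlier results of these data known.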

Additional observations from a re-analysis of the deposited data

How the results depend on the processing

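Over all genes, calls lower were 348 on TPM as deposited, 1 with a minimum of 5 scaled TPM, 1 by voom, 251 by voom with the replicate block, 923 when that fit had no minimum fold change and 3971 on TPM as deposited with the block and no minimum. Calls higher were 3, 0, 0, 170, 655 and 30 in the same order. Leaving out 1 sample gave 0 to 1 lower and 0 to 13 higher, with 13 without vehicle replicate 1. Members called lower were 2 on TPM as deposited (6.67%, against 2.98% of all genes). By voom with the block 1 member was lower (SLC7A11, 3.33%, against 2.16%), and 2 without the fold minimum of that fit (6.67%, against 7.94%). On TPM as deposited with the block and no minimum, 7 of 30 members were lower (23.3%), a smaller share than the 3971 of 11672 genes. Members called higher were 4 by voom with the block and no fold minimum (13.3%, against 5.63% of all genes). Leaving out both samples of a number, that last fit gave 0 to 2 members lower and 0 to 7 higher. The members' median log2 fold change was -0.25 on TPM as deposited, with or without the block, and 0.0514 without the 5 small RNAs, and it ran from 0.10 to 0.20 when 1 sample was left out, with 0.20 without DOX replicate 2. ATF4 was at -0.32 on TPM as deposited, with or without the block, at -0.11 after the GC and length correction with or without the block, and at -0.15 with voom, block and correction together. VLDLR was at 0.00865 after the correction, with or without the block. The cause of these moves was not tested. The block on scaled TPM changed no call of a member. The fits on TPM as deposited with the block and those by voom with the block and no fold minimum were chosen after the data were seen. Reads were few for CHAC1 and the members under 1 scaled TPM, for which vehicle replicate 3 held as few as 0 to 8 reads.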
